A study of Schizosaccharomyces pombe with 6 samples.

Results

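The genes described here are 4 genes of carbon use that fission yeast represses while glucose is present, and 6 genes for the proteins that regulate them. They were chosen by name (fbp1, inv1, agl1, mal1, rst2, scr1, tup11, tup12, pka1 and cgs1), and all 10 had a row among the 6986 features counted. Their polyadenylated RNA was measured by sequencing in 3 libraries of a seb1-G476S strain and in 3 wild-type libraries of Schizosaccharomyces pombe, with biological replicates per the series' design text. The mutant, labelled STF19 (seb1-G476S), carried rpb1-CTD-WT29::KanMX, and the wild type carried rpb1-CTD-WT29::NatMX. Both strains were h+, and every library came from a strain with a marked rpb1 locus. The drug marker cannot be told apart from the seb1 allele. Each group is 1 strain per the labels, grown vegetatively in log phase in YES medium at 30 °C. Seb1, which cells need to live, binds nascent RNA and helps RNA polymerase II to terminate.

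YES is a rich medium that contains glucose. In glucose, the cell surface receptor Git3 and its G protein stimulate adenylate cyclase, cAMP binds the regulatory subunit Cgs1, and the catalytic subunit Pka1 of cAMP-dependent protein kinase is released and active. Pka1 keeps the zinc finger activator Rst2 from inducing fbp1, while the zinc finger repressor Scr1 and the corepressors Tup11 and Tup12, partners of Ssn6, hold fbp1 and inv1 down. When glucose runs out, these brakes are lifted, and gluconeogenesis and the use of other sugars begin. Glucose was not varied in these samples, so repression itself was not measured.

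The libraries held 21013941 to 27910803 counts, and 1 count corresponded to 0.0371 to 0.0445 CPM. CPM are counts scaled to a common library total after each total was multiplied by its TMM scaling factor. These factors were 0.935 to 0.979 in the mutant and 1.01 to 1.07 in the wild type. Statements on overlap of the groups hold for this scaling. Levels are given as CPM, with mean ± SD over 3 libraries, and log2 fold changes compare mutant over wild type and carry a standard error (SE). Each test is edgeR's quasi-likelihood test with p adjusted by Benjamini-Hochberg over 6046 features, and a gene is called at an adjusted p under 0.05. Wild-type replicate 3 stood apart for several of the features below, and values without it are given for some of them.

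Of the 10 genes, 7 were higher in the mutant, 1 was lower and 2 were not called. These counts stand against a background in which 26.7% of all tested features were higher and 28.4% were lower. The median log2 fold change was 0.25 over the 10 genes and -0.01 over all tested features. For 8 of the genes the lowest mutant library was above the highest wild-type library, and for 1 the highest mutant library was below the lowest wild-type library. Across all tested features these shares were 31.3% and 32.6%. Each level is an average over a culture, so more cells with a transcript and more transcript per cell cannot be told apart. The 4 largest rises were of inv1, cgs1, fbp1 and pka1, and the gene that fell was mal1.

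**Figure D1:**
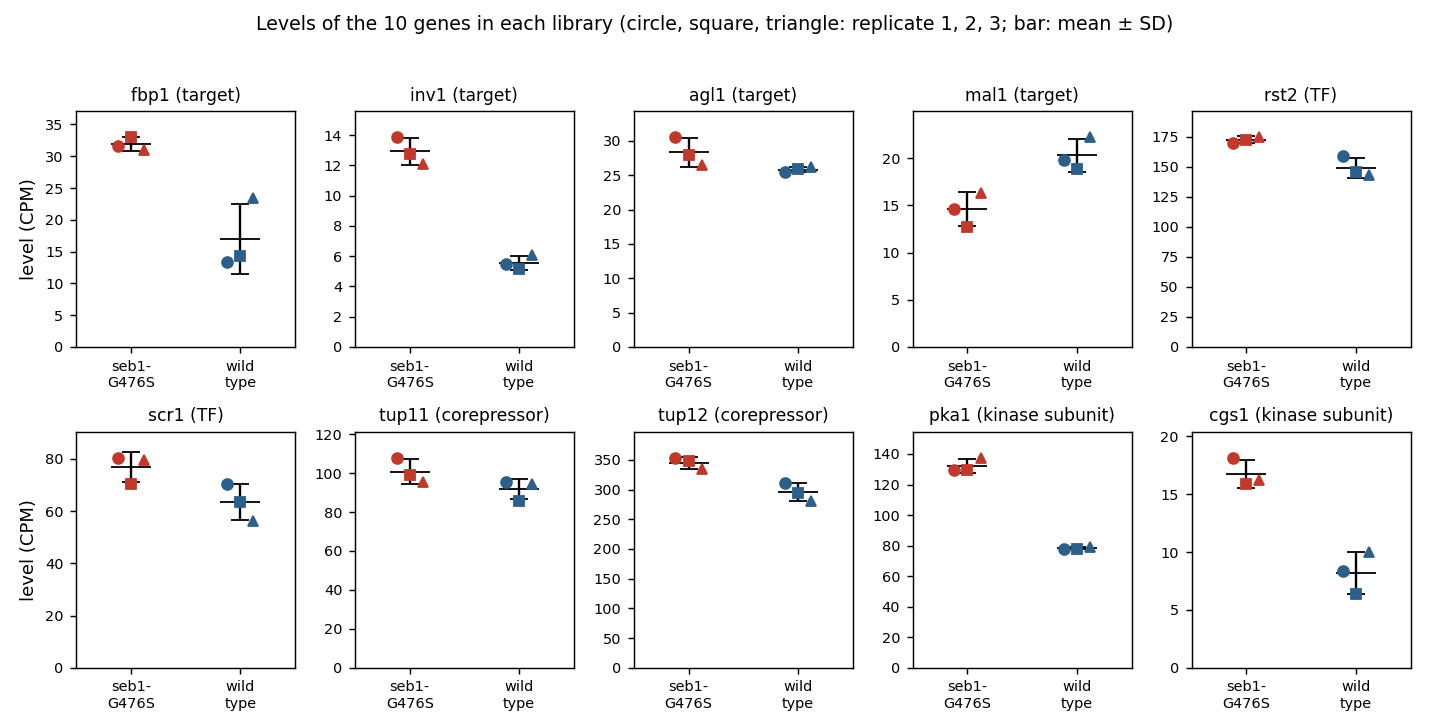
Level in CPM (linear axis from 0) of each of the 10 genes in the 3 seb1-G476S libraries (left, red) and the 3 wild-type libraries (right, blue), with circle, square and triangle for replicates 1, 2 and 3 and bars for mean ± SD. The groups are apart for inv1, cgs1, fbp1 and pka1, apart the other way for mal1, and overlap for tup11.

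The targets did not move together. The gene fbp1 (SPBC1198.14c, chromosome II) encodes fructose-1,6-bisphosphatase, the enzyme of gluconeogenesis that serves as the standard reporter of glucose repression in fission yeast. It was at 31.6, 33.1 and 31.0 CPM in mutant replicates 1 to 3, against 13.4, 14.4 and 23.4 CPM in wild-type replicates 1 to 3. The mutant libraries lay close together, with a coefficient of variation of 3.36%, while the wild-type libraries had one of 32.3%, with replicate 3 the high one. Its mean was 31.9 ± 1.07 CPM in the mutant and 17.0 ± 5.50 CPM in the wild type, a 1.87-fold rise (log2 fold change 0.91, SE 0.189, adjusted p = 0.00312). Without wild-type replicate 3 the log2 fold change was 1.20 (adjusted p = 1.13e-06), and without wild-type replicate 1 it was 0.76 (adjusted p = 0.00424).

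The gene inv1 (SPCC191.11, chromosome III) encodes the secreted invertase, which splits sucrose outside the cell. It was at 13.9, 12.8 and 12.1 CPM in the mutant libraries, against 5.49, 5.13 and 6.05 CPM in the wild-type libraries. All mutant values were thus above all wild-type values, and neither group had a library far from the other libraries. Its mean was 12.9 ± 0.91 CPM in the mutant and 5.56 ± 0.465 CPM in the wild type. This 2.33-fold rise was the largest of the 10 (log2 fold change 1.22, SE 0.135, adjusted p = 0.000108), and it was rank 82 from the top among 4952 tested coding genes. The counts behind it were 281 to 344 in the mutant and 128 to 136 in the wild type.

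The α-glucosidase genes, whose products cleave maltose, differed from these and from each other. The gene mal1 (SPBC1683.07, chromosome II), for a maltase α-glucosidase, was at 14.6, 12.8 and 16.4 CPM in the mutant, against 19.8, 18.9 and 22.3 CPM in the wild type. Every mutant library was below every wild-type library. It was 14.6 ± 1.80 CPM in the mutant and 20.3 ± 1.76 CPM in the wild type (log2 fold change -0.48, SE 0.13, adjusted p = 0.0111). Its call rested on mutant replicate 2, the lowest library, without which the log2 fold change was -0.39 (adjusted p = 0.0658).

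The gene agl1 (SPAPB24D3.10c, chromosome I) encodes a maltose α-glucosidase. It was at 30.6, 27.9 and 26.5 CPM in the mutant, against 25.4, 25.9 and 26.2 CPM in the wild type. The groups did not overlap, but the lowest mutant library and the highest wild-type library were nearly level. Its log2 fold change of 0.13 was not called (95% interval -0.08 to 0.35, adjusted p = 0.264), so a rise of the size seen for fbp1 or inv1 lies outside the interval.

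**Figure D2:**
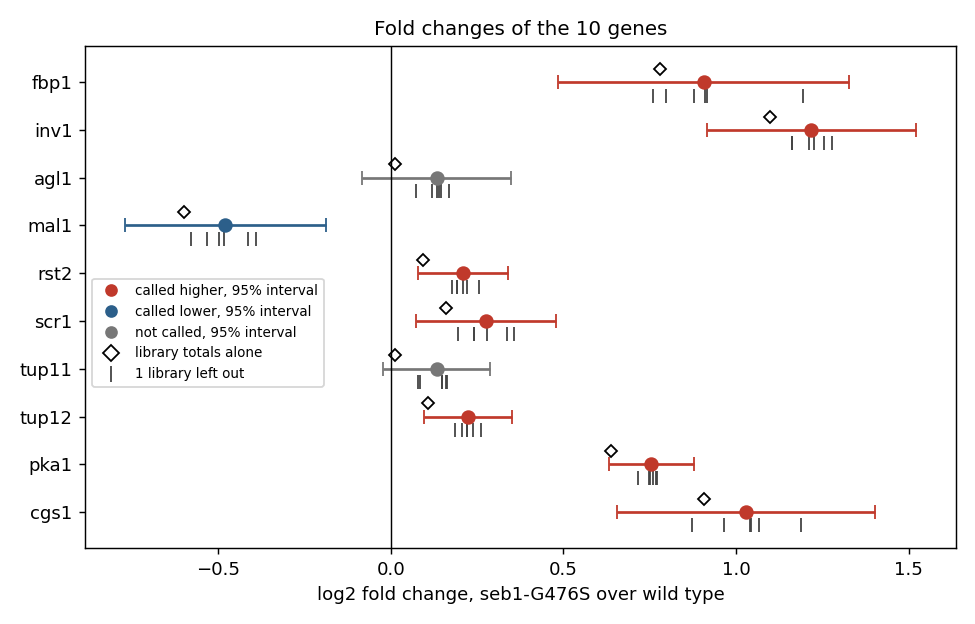
Log2 fold change of each of the 10 genes, seb1-G476S over wild type, with its 95% interval (circles), the value with library totals alone as scaling (diamonds) and the values with 1 library left out (ticks). The interval for inv1, cgs1, fbp1 and pka1 lies to the right of 0, that for mal1 to the left, and those for agl1 and tup11 cross 0.

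Both transcription factor genes were slightly higher in the mutant. The activator gene rst2 (SPAC6F12.02, chromosome I) was at 170, 173 and 175 CPM in the mutant, against 159, 146 and 143 CPM in the wild type. The groups did not overlap, although wild-type replicate 1 came near the mutant libraries. Its rise was 1.16-fold (log2 fold change 0.21, SE 0.058, adjusted p = 0.0121). The repressor gene scr1 (SPBC1D7.02c, chromosome II) was at 80.5, 70.4 and 79.6 CPM in the mutant, against 70.3, 63.5 and 56.3 CPM in the wild type. Mutant replicate 2 and wild-type replicate 1 were all but level, and the other libraries were apart. Its rise was 1.21-fold (log2 fold change 0.28, SE 0.0906, adjusted p = 0.026).

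These small rises were less secure than those of fbp1 and inv1, which kept their calls under every alternative run. With library totals alone as scaling, rst2 was at 0.094 on the log2 scale (adjusted p = 0.128) and scr1 at 0.16 (adjusted p = 0.121). That scaling moved the median of all tested features by -0.12, and relative to the moved median rst2 was at 0.22 and scr1 at 0.29. The adjusted p of rst2 was 0.0541 without mutant replicate 2 and 0.0529 without wild-type replicate 2. That of scr1 was 0.0926 without mutant replicate 1, 0.0882 without mutant replicate 3 and 0.0688 without wild-type replicate 2. Both genes kept a positive direction under all of these settings.

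The paralogous corepressor genes differed in call but little in size. The gene tup12 (SPAC630.14c, chromosome I) was at 354, 347 and 334 CPM in the mutant, against 311, 294 and 280 CPM in the wild type. The mutant libraries were all above, and tup12 rose 1.17-fold (log2 fold change 0.22, SE 0.0571, adjusted p = 0.00827). The gene tup11 (SPAC18B11.10, chromosome I) was at 108, 98.8 and 95.5 CPM in the mutant, against 95.6, 85.9 and 94.3 CPM in the wild type. These groups overlapped, and the log2 fold change of 0.13 was not called (95% interval -0.02 to 0.29, adjusted p = 0.127). Within a library, the ratio of tup11 to tup12 was 0.305, 0.285 and 0.286 in the mutant and 0.307, 0.292 and 0.336 in the wild type, so the ratios overlapped between the groups. The interval of tup11 holds the log2 fold change of tup12, and a difference between the paralogues was not tested.

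The genes for both subunits of cAMP-dependent protein kinase rose. The catalytic subunit gene pka1 (SPBC106.10, chromosome II) was at 129.4, 129.3 and 138 CPM in the mutant, against 77.9, 77.7 and 79.2 CPM in the wild type. The groups were far apart, and the wild-type libraries differed by a coefficient of variation of only 1.04%. Its mean was 132 ± 4.81 CPM in the mutant and 78.3 ± 0.816 CPM in the wild type, a 1.69-fold rise with the smallest adjusted p of the 10 genes (log2 fold change 0.75, SE 0.0554, adjusted p = 9.08e-06).

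The regulatory subunit gene cgs1 (SPAC8C9.03, chromosome I), whose product inhibits Pka1 until cAMP binds it, was at 18.2, 15.9 and 16.2 CPM in the mutant, against 8.32, 6.37 and 9.97 CPM in the wild type. Every mutant library was above every wild-type library, with wild-type replicate 2 the lowest. It rose 2.04-fold, to 16.8 ± 1.24 CPM in the mutant, against 8.22 ± 1.80 CPM in the wild type (log2 fold change 1.03, SE 0.167, adjusted p = 0.000817). The ratio of cgs1 to pka1 within a library was 0.140, 0.123 and 0.118 in the mutant and 0.107, 0.082 and 0.126 in the wild type. The ratios overlapped, since wild-type replicate 3 had a higher ratio than 2 of the mutant libraries. Inhibitor and kinase transcripts were thus both higher in the mutant, without a separation of their ratio between the groups.

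To compare levels between the genes, CPM was divided by exon length in kilobases. In the wild type tup12 led with 141 ± 7.28 CPM per kb, followed by tup11, pka1 and rst2, which were at 40.3 ± 2.31, 39.82 ± 0.415 and 39.78 ± 2.23 CPM per kb and overlapped. Below these came scr1 at 18.0 ± 1.98 CPM per kb, then fbp1 at 9.97 ± 3.21 and agl1 at 8.41 ± 0.133 CPM per kb, which overlapped. The lowest were mal1 at 7.48 ± 0.648, cgs1 at 3.51 ± 0.768 and inv1 at 2.04 ± 0.17 CPM per kb. Among tested coding genes the wild-type level per kb of inv1 was at percentile 3.74 and that of cgs1 at percentile 5.65, with mal1, agl1 and fbp1 at percentiles 13.3, 15.3 and 18.5. The 4 targets were thus weakly expressed in the wild type, but so was the regulator gene cgs1. The part of glucose repression in these levels was not tested.

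The order differed in the mutant. There tup12 was at 164 ± 4.86 CPM per kb and pka1, at 67.2 ± 2.44 CPM per kb, was second and apart from rst2 and tup11, which overlapped at 46.0 ± 0.759 and 44.2 ± 2.83 CPM per kb. The level of scr1 was 21.8 ± 1.59 and that of fbp1 18.7 ± 0.627 CPM per kb, so that fbp1 no longer overlapped agl1, at 9.22 ± 0.683 CPM per kb. The gene cgs1, at 7.15 ± 0.531 CPM per kb, stood above mal1 in the mutant and below it in the wild type. Both mal1, at 5.36 ± 0.662, and inv1, at 4.73 ± 0.333 CPM per kb, were at the bottom and overlapped.

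The fbp1 locus is known for non-coding transcripts, so the counted features beside each gene were read as well. Opposite fbp1, the RNA fbp1-antisense-1 (SPNCRNA.1324) fell while fbp1 rose. It was at 5.87, 6.27 and 5.77 CPM in the mutant, against 10.6, 10.6 and 10.2 CPM in the wild type (log2 fold change -0.81, SE 0.127, adjusted p = 0.00066). Its groups were far apart, and wild-type replicate 3, the high library for fbp1, was the lowest wild-type library for the antisense RNA. For each count of fbp1 the mutant libraries had 0.186, 0.19 and 0.186 counts of the antisense RNA, against 0.795, 0.741 and 0.438 in the wild type. The library kit keeps strand, but the strand option of the authors' counting is not given in the sources used here.

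On the strand of fbp1 and directly upstream of it lies SPNCRNA.1325, an intergenic RNA that the authors' deposited table also describes as a possible alternative UTR. It was at 8.46, 8.05 and 7.37 CPM in the mutant, against 3.69, 4.90 and 7.74 CPM in the wild type. Wild-type replicate 3 lay among the mutant libraries, as the groups overlapped there. Its log2 fold change of 0.55 was not called (95% interval 0.02 to 1.08 without adjustment, adjusted p = 0.0724), and it was 0.88 (adjusted p = 0.000835) without wild-type replicate 3. At inv1, SPNCRNA.1224 overlaps the end of the gene on the same strand. The authors' deposited table describes it as a predicted antisense RNA and a possible alternative UTR. Its wild-type counts were only 9, 4 and 13. It was at 1.38, 1.45 and 1.77 CPM in the mutant, against 0.386, 0.155 and 0.579 CPM in the wild type, a rise of 2.05 on the log2 scale (SE 0.354, adjusted p = 0.00114). Reads of overlapping features on the same strand can be assigned to either or to neither, and how they were treated is not given in the sources used here.

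The other counted neighbours went both ways. The uridine ribohydrolase gene urh1, which overlaps mal1 on the opposite strand, rose (log2 fold change 0.64, adjusted p = 0.00733). It was at 17.1, 17.7 and 19.7 CPM in the mutant and 10.1, 10.3 and 14.6 CPM in the wild type. The direction of urh1 was thus opposite to that of mal1. How reads in their overlap were assigned is not given in the sources used here. The antisense RNAs mal1-antisense-1 and SPNCRNA.1318 were not called, with log2 fold changes of -0.19 (adjusted p = 0.482) and 0.03 (adjusted p = 0.933). Without wild-type replicate 3, SPNCRNA.1318 was at 0.36 (adjusted p = 0.042). Downstream of rst2 and overlapping it on the opposite strand, the SNARE gene fsv1 was at -0.52 (adjusted p = 0.00925). The phospholipase gene plg7, placed likewise next to pka1 without overlap, was at -0.30 (adjusted p = 0.00783). Of all tested features, 28.4% were lower. The prefoldin gene gim6 beside scr1 was at -0.28 and was not called (adjusted p = 0.163), and it was at -0.42 (adjusted p = 0.0278) without wild-type replicate 1 and at -0.086 (adjusted p = 0.521) without wild-type replicate 3. An antisense RNA beyond cgs1, SPAC8C9.04-antisense-1, rose instead, by 0.60 on the log2 scale (adjusted p = 0.00818).

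Of the remaining neighbours, gti1, an inducer of gluconate transport upstream of tup12, rose by 0.67 on the log2 scale (adjusted p = 0.000684), and the ABC transporter gene pdr1 downstream of agl1 rose by 0.26 (adjusted p = 0.00559). The call for pdr1 was lost with library totals alone (adjusted p = 0.0711). The genes cdc48 beside rst2, cut4 beside pka1, SPAC18B11.11 beside tup11, tsc2 beside tup12 and the RNA tup11-antisense-1 were not called, with log2 fold changes of -0.27 to 0.13. Without wild-type replicate 1, cdc48 was called, at 0.14 (adjusted p = 0.0456). The RNA prl27, which overlaps tup11 on the opposite strand, was at 0 counts throughout. At these depths this allows up to 3 counts or 0.111 to 0.134 CPM. SPCC191.10, SPRRNA.13, SPNCRNA.1460 and SPAC1142.09 had too few counts to be tested.

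**Figure D3:**
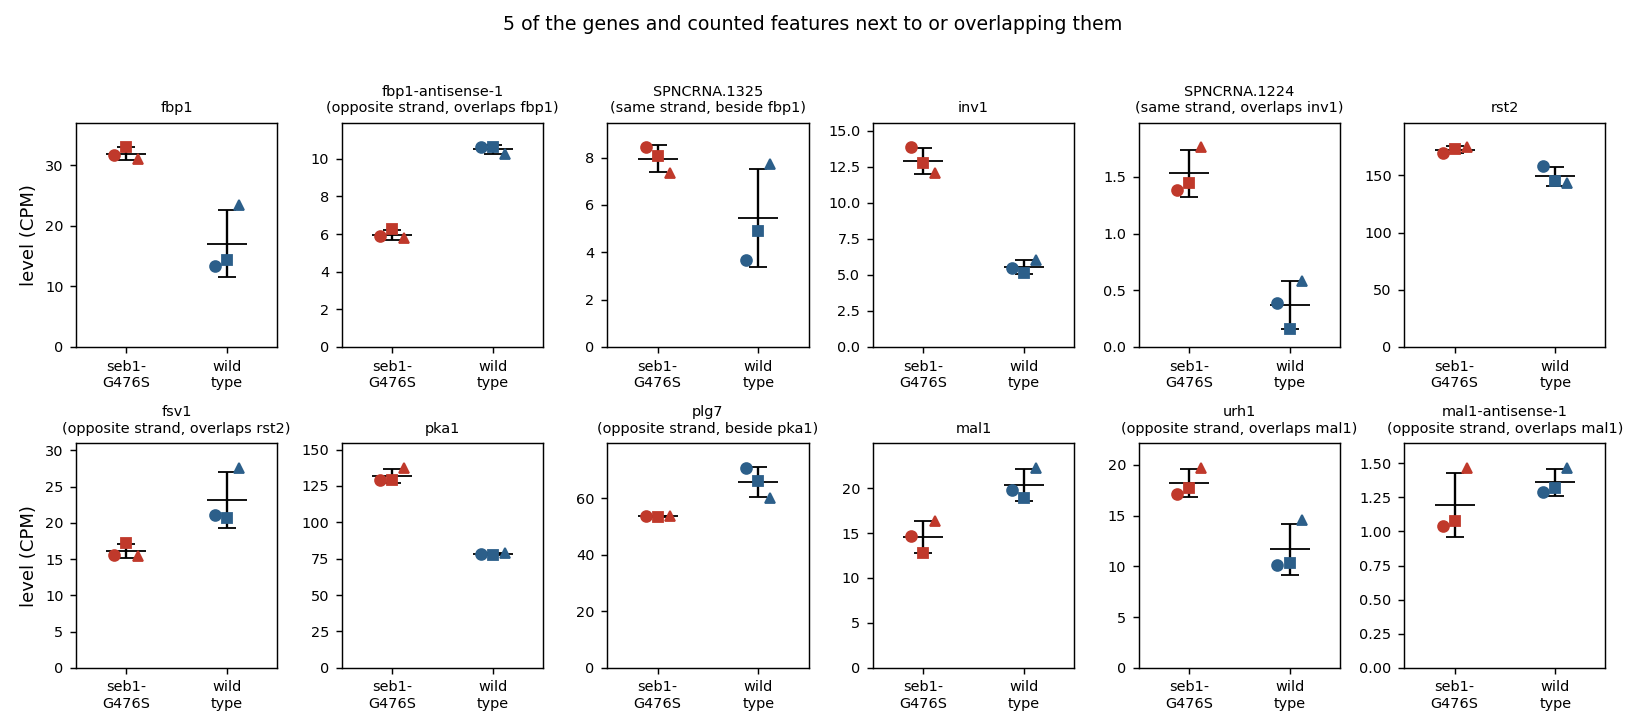
Level in CPM (linear axis from 0) of 5 of the genes and of features beside or across them, in seb1-G476S libraries (left, red) and wild-type libraries (right, blue), with circle, square and triangle for replicates 1, 2 and 3 and bars for mean ± SD. The fbp1 antisense RNA is lower in all mutant libraries while fbp1 is higher, fsv1 and plg7 are lower where rst2 and pka1 are higher, and urh1 is higher where mal1 is lower.

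Upstream in the glucose signal, the genes for sensing and cAMP went both ways. Of 11 tested, 3 were higher, 2 were lower and 6 were not called, with a median log2 fold change of 0.02, where 26.7% of all tested features were higher and 28.4% lower. The share of higher genes was thus near that of all features. The receptor gene git3 was at 0.31 (adjusted p = 0.00301), the G protein β subunit gene git5 at 0.38 (adjusted p = 0.0142) and the kinase gene sck1 at 0.27 (adjusted p = 0.00385). The largest change was the fall of git7, for an SGT1-like protein needed for glucose sensing, which was at 8.68, 9.02 and 8.96 CPM in the mutant, against 13.2, 15.7 and 21.2 CPM in the wild type (log2 fold change -0.91, adjusted p = 0.00198). Without wild-type replicate 3, git7 was at -0.71 (adjusted p = 0.000497). The kinase gene sck2 was at -0.22 (adjusted p = 0.0113). The genes of adenylate cyclase, cyr1, and of the cAMP phosphodiesterase, cgs2, had log2 fold changes of -0.01 and 0.02 and were not called.

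Several of these calls were weak. With library totals alone, git3 and git5 lost theirs (adjusted p = 0.0663 and 0.103). Leaving out mutant replicate 2 gave an adjusted p of 0.0734 for git5 and 0.0584 for sck2, and git5 was also not called without mutant replicate 3 (adjusted p = 0.0644) or wild-type replicate 2 (adjusted p = 0.0573). In the pathway of AMP-activated kinase, which relieves repression by Scr1 when energy is low, 1 of 5 tested genes was higher and 0 were lower, against 26.7% and 28.4% of all tested features. It was ssp1, for the kinase that activates the catalytic subunit Ssp2, at 0.41 (adjusted p = 0.000631). The gene ssp2 itself was at 0.21 and was not called (adjusted p = 0.0526).

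Among cofactors of repression and other factors tied to fbp1, 5 of 8 were higher and 1 was lower, against 26.7% and 28.4% of all tested features. The genes php3 and php2, for subunits of the CCAAT-binding complex, were at 0.48 (adjusted p = 0.000227) and 0.34 (adjusted p = 0.00268), and atf1, for the activator that binds the fbp1 promoter with Pcr1, was at 0.36 (adjusted p = 0.00104). The MAP kinase gene sty1, whose product acts on Atf1, fell, at 250, 260 and 257 CPM in the mutant and 378, 376 and 358 CPM in the wild type (log2 fold change -0.54, adjusted p = 4.72e-05). The corepressor gene ssn6 was not called, at -0.03 (adjusted p = 0.774). The genes of Sty1 and of its substrate Atf1 thus moved in opposite directions.

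Other genes for using carbon sources had 5 higher and 0 lower among 15 tested, of 16 listed, where 26.7% of all tested features were higher and 28.4% lower. The share of higher genes was near that background. The epimerase gene gal10 of galactose use was at 28.8, 36.6 and 38.1 CPM in the mutant, against 8.54, 11.8 and 24.5 CPM in the wild type (log2 fold change 1.21, adjusted p = 0.00907). As for fbp1, wild-type replicate 3 was the high library of its group. Without that library the log2 fold change of gal10 was 1.75 (adjusted p = 3.14e-06). The galactose genes gal1 and gal7 were not called, at -0.13 and 0.51 on the log2 scale. The α-amylase homologue genes meu7, also called aah4, and aah2 rose by 1.08 (adjusted p = 0.000704) and 0.51 (adjusted p = 0.00251). Of the 8 hexose transporter genes, 5 were higher and 0 lower, against the same background, led by ght6 at 1.41 (adjusted p = 0.00216), ght5 at 0.73 (adjusted p = 0.00544) and ght7 at 0.63 (adjusted p = 0.0164). Levels of ght6 and ght7 were low, with wild-type means of 0.566 and 1.42 CPM. The wild-type libraries of ght5 were spread, at 201, 153 and 108 CPM. Without wild-type replicate 3, ght5 was at 0.53 (adjusted p = 0.000355). The call for ght7 was lost without mutant replicate 3 (adjusted p = 0.0601). The 15 carbon source genes had a median log2 fold change of 0.11 and the transporters one of 0.39, against -0.01 for all tested features.

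**Figure D4:**
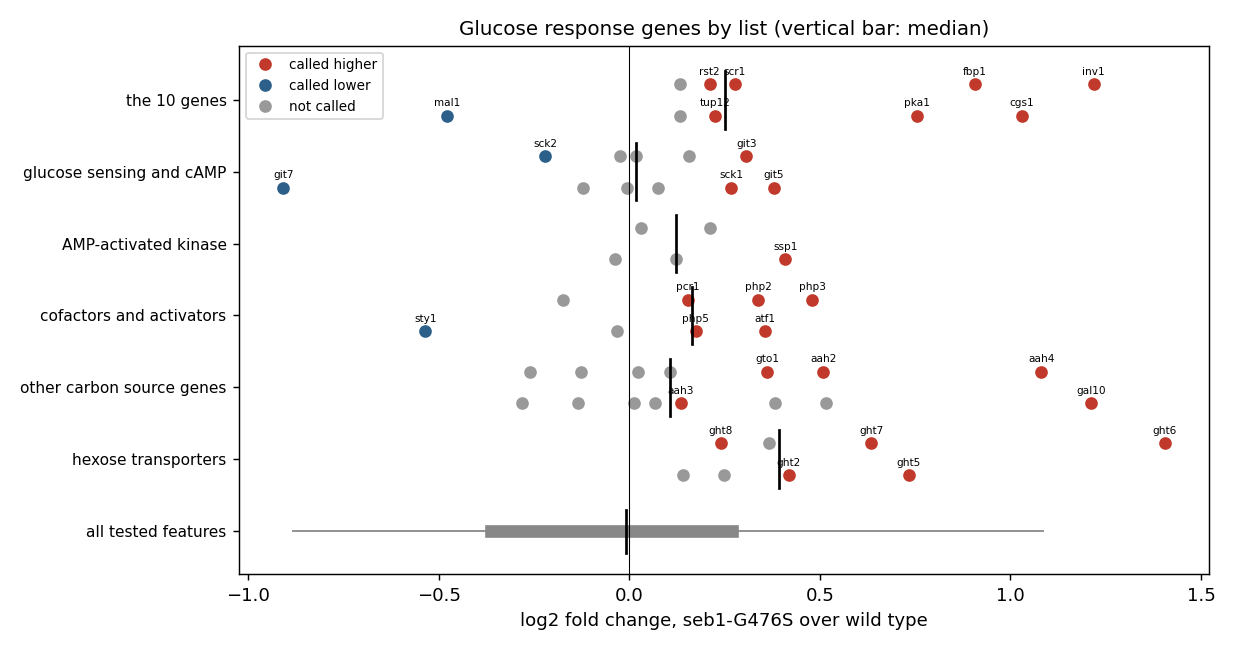
Log2 fold change, seb1-G476S over wild type, of the 10 genes and of each tested gene of 5 lists of the glucose response, coloured by call, with a bar at each list's median. The lowest line gives all tested features, with a thick line over the middle from percentile 25 to 75 and a thin line from percentile 5 to 95, and its median is near 0.

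Genes that mark other growth states did not move one way beside these values. Of 4 markers of meiosis and mating, 3 were higher and 1 was lower, where 26.7% of all tested features were higher and 28.4% lower. The lower one was mei2, a regulator of meiosis, at -1.26 (adjusted p = 9.23e-06). The meiosis inducer gene mei3 was at 1.91 (adjusted p = 0.00114) and the pheromone gene mfm1 at 0.94 (adjusted p = 0.0337). Both came from under 1 CPM in the wild type. The mating regulator gene ste11 was at 0.24 (adjusted p = 0.0219). Mutant and wild-type libraries overlapped for ste11 and for mfm1. Of 4 markers of stationary phase and stress, the catalase gene ctt1 and the glutathione peroxidase gene gpx1 were lower, both at -0.33 (adjusted p = 0.0339 and 0.00168). The heat shock gene hsp9 and the trehalase gene ntp1 were higher, at 0.26 (adjusted p = 0.0106) and 0.40 (adjusted p = 0.000428), against the same background. Their summed level was 684 to 698 CPM in the mutant and 616 to 707 CPM in the wild type. That of the meiosis and mating markers was 331 to 363 CPM in the mutant and 363 to 393 CPM in the wild type. Nearly all of the latter sum was ste11 (means of 291 CPM in the mutant and 247 CPM in the wild type) and mei2 (55.8 and 134 CPM). Its lower value in the mutant thus came from mei2. The part of growth state in the values of the 10 genes was not tested. Calls for ste11, hsp9 and mfm1 were lost with library totals alone (adjusted p = 0.289, 0.0978 and 0.0752). Without mutant replicate 2 or 3 the adjusted p was 0.0902 or 0.0883 for ste11 and 0.121 or 0.119 for mfm1. It was 0.0958 for ste11 without wild-type replicate 2 and 0.0916 for mfm1 without wild-type replicate 1. The call for ctt1 was lost without any 1 library other than wild-type replicate 3 (adjusted p = 0.0669 to 0.0895).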

How the data were processed

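The 6 libraries were made from polyadenylated RNA with a stranded kit and sequenced paired-end, per the labels' protocols. The authors deposited raw counts per feature, and HTSeq 0.10.0, HISAT2 2.1.0, SAMtools, DESeq2 and build ASM294v2 stand in the submitters' processing notes. The authors' deposited comparison gives log2 fold changes with standard errors, a test statistic (a score), p-values and averages of counts divided by size factors (a signal), per the file headers.

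The 6987 rows held a repeated identifier, which was summed to give 6986 features. Groups and replicate numbers came from the titles. The test was edgeR 4.0.16 in R 4.3.3, the two-sided quasi-likelihood test with TMM scaling and filterByExpr at a minimum count of 10, with Benjamini-Hochberg adjustment over 6046 features. A standard error is the fold change on the log2 scale divided by the root of the F statistic, and 95% intervals use the moderated degrees of freedom, with 4 residual ones. The procedure was tested on simulated data in which far fewer features changed than the 3328 called here. That simulation cannot show how the scaling behaves with so many changes. Alternatives were RLE factors, library totals alone, no low-count filter, DESeq2 1.42.0, the replicate number as a block, and leaving out each library.

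Neighbouring features, chromosomes and exon lengths came from the RefSeq annotation of ASM294v3, which matched 6837 features. The build differs from the authors', so no coordinates or sequences are given. No 2 libraries agreed within sampling noise (lowest chi-square per degree of freedom 3.87). These intervals include the spread between libraries, while floors of 3 counts cover counting error only.

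The named features are the 10 genes, up to 3 called genes a direction and list, the 8 markers, the counted features next to or across each of the 10 genes, and the 3 features most like fbp1 and inv1 by Pearson r of log2 CPM (prior count 2). Genes of the lists named beyond this (gal1, gal7, cyr1, cgs2, ssp2 and ssn6) were chosen after their values were seen. The members and lists were chosen with earlier results of these data known.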

Additional observations from a re-analysis of the deposited data

How the results depend on the processing

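All 10 genes kept their direction under each of the 11 alternatives, and of 110 values 102 stayed on the same side of the threshold. With library totals alone as scaling, rst2 (log2 fold change 0.094) and scr1 (0.16) lost their calls, and 5 genes were called higher, where 19% of all features were. That scaling moved the share of calls that were higher to 33.4%, against 48.5% with TMM. Leaving out 1 library at a time gave log2 fold changes of 0.76 to 1.20 for fbp1, 1.16 to 1.28 for inv1, 0.07 to 0.17 for agl1, -0.58 to -0.39 for mal1, 0.18 to 0.26 for rst2, 0.20 to 0.36 for scr1, 0.08 to 0.16 for tup11, 0.18 to 0.26 for tup12, 0.72 to 0.77 for pka1 and 0.87 to 1.19 for cgs1. Between 5 and 7 of the genes were then called higher and 0 to 1 lower, with 2522 to 3512 features called in all. Of all tested features, 20.7% to 28.1% were then higher and 20.8% to 30.1% lower. Fewer libraries are part of these settings. Otherwise the cause was not tested.

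With library totals alone 4 uncalled neighbours turned direction, at -0.020 for cdc48, -0.060 for SPAC18B11.11, -0.10 for SPNCRNA.1318 and -0.10 for tsc2. With 1 library left out, SPNCRNA.1318 ranged from -0.20 to 0.36, SPAC18B11.11 from -0.012 to 0.13 and tsc2 from -0.0098 to 0.050. The calls for ght7 and mfm1 were lost in DESeq2 (adjusted p = 0.102 and 0.126). Whether the replicate numbers pair cultures is not stated in the sources used here. The correlation of deviations was 0.36, 0.06 and 0.26 for equal numbers 1, 2 and 3. It was -0.30 to 0.07 for unequal numbers, so numbers 1 and 3 were above every unequal pair. Number 2 was not, as mutant replicate 2 correlated slightly better with wild-type replicate 3 (0.07). With the replicate block, 3906 features were called, against 3328 without it. With it, 7 of the 10 genes were higher and 1 lower, against 31% and 33.6% of all tested features. The log2 fold change of fbp1 was then 0.94 and that of SPNCRNA.1325 0.59 (adjusted p = 0.0321). The block also brought calls for the neighbours cdc48 (adjusted p = 0.0261) and gim6 (0.0341), and for puf1, predicted to encode a pumilio family RNA-binding protein and not described above (0.0308), which were not called with all 6 libraries and no block. The lowest count of any of the 10 genes in a library was 128, for inv1.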

Other observations

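The authors' deposited table gives 7 of the 10 genes as higher and 1 as lower at an adjusted p under 0.05, where it gives 24.4% and 22.2% of all features. Its log2 fold changes were 1.26 for inv1, 1.07 for cgs1, 0.95 for fbp1 and 0.79 for pka1. In the authors' deposited table the mean over libraries lies outside the pair of group averages for 4 of the 10 genes. For inv1 this mean is 339, against a mutant average of 308 and a wild-type average of 129, and for mal1 it is 330, against a mutant average of 347 and a wild-type average of 471. The same holds for rst2 and scr1. The deposited fold changes and calls may thus come from more libraries than these 6.

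The 3 features whose log2 CPM followed fbp1 most closely over the 6 libraries were puf1, for a pumilio family RNA-binding protein (Pearson r 0.9995), sec16-antisense-1 (r 0.9985) and SPAPB24D3.07c (r 0.9979). For inv1 they were rec12-antisense-1 (r 0.9992), the RNA helicase gene dbp2 (r 0.9991) and SPBC32F12.10, a predicted phosphoglucomutase gene (r 0.9989). The log2 fold change of puf1 was only 0.13, while that of rec12-antisense-1 was 2.35 and that of dbp2 1.20. These values describe 6 libraries in 2 groups that share their scaling, and many features differ between the groups.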
